A study of Mus musculus with 6 samples.

Results

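The respiratory chain genes described here are 38 of the 31253 genes counted in the hippocampus of old mice: 13 protein-coding genes of the mitochondrial genome and 25 genes of the nuclear genome whose products join them in the same complexes. They were taken by gene symbol from a list of named members, without regard to any value, and each symbol occurred once in the gene table. Of the mitochondrial members, 7 encode subunits of complex I, 1 of complex III, 3 of complex IV and 2 of complex V. Of the nuclear members, 7 belong to complex I, 4 to complex II, 5 to complex III and 9 to complex IV, counting Ndufa4 with complex IV. The study exposed old mice to 2% sevoflurane, an inhaled anaesthetic, for 6 h, or to air, and took the hippocampus 24 h later for single-cell sequencing with a 3′ tag kit. There were 3 libraries from air-treated mice (Control 1 to 3) and 3 from sevoflurane-treated mice (Sevoflurane 1 to 3), from 6 mice in all, and the labels give neither strain nor sex. Every library was made from a collagenase-digested cell suspension that had been frozen and thawed.

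The respiratory chain passes electrons from NADH and succinate to oxygen, and the ATP synthase uses the resulting proton gradient to make ATP. Complexes I, III, IV and V are built from subunits of both genomes, whereas complex II is wholly nuclear. The mitochondrial genes are transcribed inside the organelle as long polycistronic RNAs that are cut and polyadenylated there, while the nuclear genes are transcribed in the nucleus, spliced and translated in the cytosol, so the RNAs of 1 enzyme come from different places in a cell.

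The ends and overlaps of the mitochondrial transcripts are shown because the kit captures polyadenylated 3′ ends and the compact genome puts neighbouring genes on the same bases. The mitochondrial members have no introns, and the annotated transcripts (GENCODE M21, build GRCm38, chromosome M; plus strand except mt-Nd6) run from 204 bases for mt-Atp8 to 1824 bases for mt-Nd5. The 30 bases that end mt-Co1 (chrM:6843-6872), mt-Co3 (chrM:9361-9390), mt-Nd4 (chrM:11515-11544) and mt-Cytb (chrM:15259-15288) are printed 5′ to 3′, with the stop codon, or the part of it that the genome encodes, in capitals.
mt-Co1: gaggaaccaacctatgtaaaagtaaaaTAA
mt-Co3: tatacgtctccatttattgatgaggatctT
mt-Nd4: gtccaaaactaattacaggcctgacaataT
mt-Cytb: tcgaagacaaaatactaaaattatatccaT
In mt-Co1 the stop codon stands whole, and in the other 3 the transcript ends 1 base into it, the remainder being supplied by the poly(A) tail, as is known for these mRNAs. The last 43 bases of mt-Atp8 are the first 43 of mt-Atp6 (chrM:7927-7969), and the last 7 of mt-Nd4l are the first 7 of mt-Nd4 (chrM:10167-10173). Both overlaps are shown in capitals with 30 bases on either side.
mt-Atp8 and mt-Atp6: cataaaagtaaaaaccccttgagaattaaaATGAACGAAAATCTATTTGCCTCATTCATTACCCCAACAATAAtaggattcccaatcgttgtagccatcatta
mt-Nd4l and mt-Nd4: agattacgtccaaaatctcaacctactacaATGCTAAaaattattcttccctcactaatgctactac
Reads within these bases cannot be told apart by gene, and in the cell each pair is carried on 1 shared mRNA, so the counts of mt-Atp8 and mt-Nd4l are uncertain. mt-Nd6, on the minus strand, overlaps the end of mt-Nd5 by 14 bases (chrM:13552-13565), and whether the counting used strand is not given in the sources used here.

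The libraries held 54426522 to 70741809 UMIs (unique molecular identifiers, 1 for each captured RNA molecule), and 46876 of 50466 barcodes were kept. The kept cells formed 35 clusters, grouped without the member genes, of which 30 were named from marker genes. Of the resulting classes, 7 had enough cells in every library to be tested: neuron-like (28839 cells), oligodendrocyte-like (6879), astrocyte-like (4104), microglia-like (1623), oligodendrocyte precursor-like (1147), endothelial-like (683, with Rgs5 and the haemoglobin gene Hbb-bs also among its leading genes) and ependymal-like (559). The unnamed cells made up 2.96 to 7.62% of each library. Hippocampal granule, CA3 and inhibitory neuron markers were all present. At most 0.333% of a library's barcodes were shared with another library. Sevoflurane 1 stood apart from the other libraries in sex-linked RNA, with Xist at 1360 CPM (UMI counts scaled to a common library total) against 0.538 to 1.20 and the Y-linked Ddx3y at 0.293 against 47.1 to 56.0. Each test below was therefore also run without it, and no member was called for a sevoflurane effect in any class in those fits.

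No member of either genome passed the test for a sevoflurane effect in neuron-like cells, where 3.89% of all 18821 genes tested did (edgeR quasi-likelihood test on UMIs summed per library, Benjamini-Hochberg adjusted p under 0.05). At an unadjusted p under 0.05 there were 0 of 13 mitochondrial and 1 of 25 nuclear members, beside 20.9% of all genes, and DESeq2 called 0 and 1. The 13 mitochondrial members together took up 0.496% of the UMIs of neuron-like cells in Control 1, 0.143% in Control 2 and 0.264% in Control 3, and 0.233%, 0.432% and 0.351% in Sevoflurane 1 to 3. The air-treated libraries thus held both the highest and the lowest value, 3.46-fold apart, and all sevoflurane libraries lay between them. The means were 0.301% ± 0.179 (SD, n = 3) and 0.339% ± 0.101 (SD, n = 3).

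The 25 nuclear members together took up 0.110%, 0.0965% and 0.109% in Control 1 to 3 and 0.134%, 0.152% and 0.109% in Sevoflurane 1 to 3. The air-treated libraries lay within 1.14-fold of each other, Sevoflurane 1 and 2 were above all of them, and Sevoflurane 3 was within their range. The means were 0.105% ± 0.00754 (SD, n = 3) and 0.131% ± 0.0218 (SD, n = 3), a ratio of 1.25. The mitochondrial and nuclear shares therefore did not order the libraries alike. Control 1, highest of all in its mitochondrial share, was below Sevoflurane 1 and 2 in its nuclear share. Per cell, without scaling to depth, the nuclear members had 12.04, 10.08 and 10.55 UMIs in Control 1 to 3. In Sevoflurane 1 to 3 they had 11.99, 13.73 and 12.26. By that count Sevoflurane 1 was below Control 1, and Sevoflurane 3 was above all air-treated libraries. Mean depth was 10969, 10444 and 9649 UMIs per cell in Control 1 to 3 and 8984, 9039 and 11294 in Sevoflurane 1 to 3. Beside the nuclear sum, the summed level of the 10 neuron markers in these cells was 30859 to 33085 CPM in the air-treated libraries and 26756 to 27454 in the sevoflurane libraries, and the part of this in the nuclear sum was not tested.

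**Figure D1:**
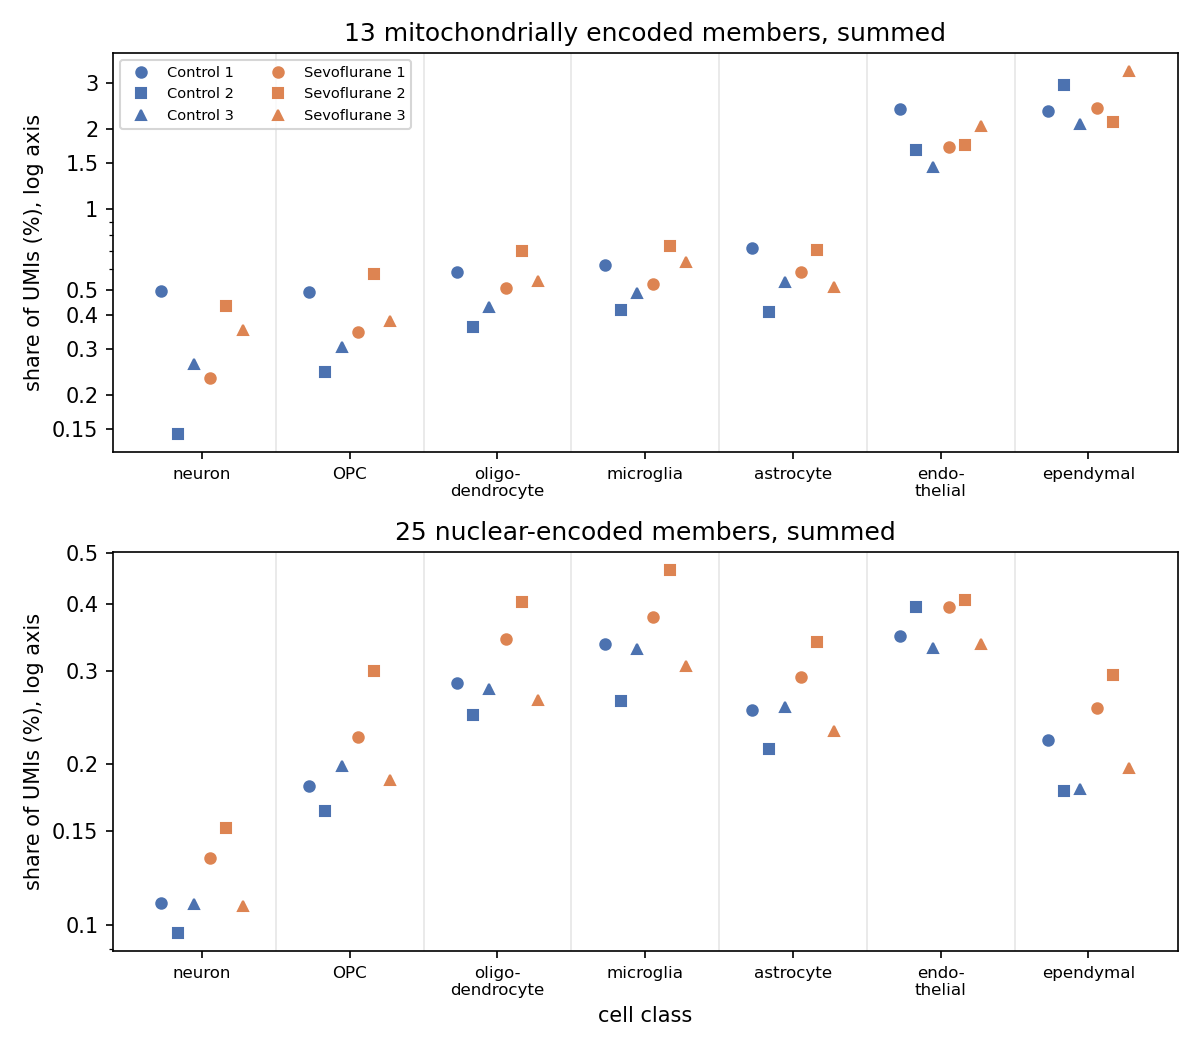
Share of all UMIs of a cell class (%, log axis) in the 13 mitochondrial members (upper panel) and the 25 nuclear members (lower panel), 1 point per library, blue for air and orange for sevoflurane. In neuron-like cells the mitochondrial share runs from 0.143% in Control 2 to 0.496% in Control 1, and the nuclear share is highest in Sevoflurane 2 in all 7 classes.

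The mitochondrial members kept broadly similar proportions to each other while their sum moved. mt-Co3, a core subunit of cytochrome c oxidase, made up 18.3 to 19.9% of the mitochondrial UMIs of neuron-like cells over the 6 libraries. mt-Atp6, the proton channel subunit of ATP synthase, made up 18.0 to 19.8%, and mt-Cytb, the haem-carrying subunit of complex III, 7.92 to 9.47%. mt-Co1 made up 11.6% in Control 1, the library with the highest sum, and 14.7% in Control 2, the library with the lowest. The widest relative range was that of mt-Nd6, from 0.156% in Control 1 to 0.271% in Control 2, on 1627 UMIs in all.

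Complex I, the NADH dehydrogenase, has 7 members of each genome. mt-Nd4, a proton-pumping membrane subunit, counted 430, 142 and 230 CPM in the neuron-like cells of Control 1 to 3 (here and below scaled by TMM) and 209, 377 and 280 CPM in Sevoflurane 1 to 3. Its log2 fold change was 0.11 with a standard error of 0.37 (BH-adjusted p = 0.894, edgeR), and the groups overlapped. mt-Nd6, the member with the fewest UMIs, counted 4.14 to 8.06 CPM over the 6 libraries. The same fit gave mt-Nd5, another membrane subunit, a log2 fold change of 0.11 (SE 0.35) and mt-Nd1, at the junction of the membrane arm with the matrix arm, one of 0.09 (SE 0.41).

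Among the nuclear complex I genes, Ndufs1, the large iron-sulphur subunit, counted 69.5, 68.0 and 69.1 CPM in Control 1 to 3 and 66.8, 75.5 and 70.4 in Sevoflurane 1 to 3. Its log2 fold change was 0.04 (SE 0.06). Ndufs8, which holds a pair of iron-sulphur clusters, was the lowest of the group at 11.2 CPM ± 1.58 (SD, n = 6 libraries) with a log2 fold change of 0.25 (SE 0.12). The accessory subunits Ndufa1, Ndufa2, Ndufb8 and Ndufb9 had log2 fold changes between 0.23 and 0.32, none called, and Ndufv1, which binds the flavin, one of 0.05 (SE 0.10).

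Complex II, succinate dehydrogenase, also takes part in the citric acid cycle. Sdha, its flavin-bearing subunit (ENSMUSG00000021577, chr13:74322254-74350280, minus strand), counted 79.4, 80.0 and 79.1 CPM in Control 1 to 3 and 85.5, 84.4 and 84.0 CPM in Sevoflurane 1 to 3. The groups did not overlap, as was so for 26.8% of all genes tested in neuron-like cells. The difference was small, a log2 fold change of 0.09 (SE 0.05, BH-adjusted p = 0.312, edgeR), and Sdha was the only member of the 38 whose groups stood apart in these cells. Sdhb, the iron-sulphur subunit, had the only nuclear log2 fold change below 0, at -0.13 (SE 0.10), with 33.1 to 40.7 CPM in air and 32.5 to 37.3 in sevoflurane. The membrane anchors gave log2 fold changes of 0.04 (SE 0.07) for Sdhc and 0.12 (SE 0.11) for Sdhd, the latter the lowest of the complex at 11.5 CPM ± 1.14 (SD, n = 6).

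Complex III, the cytochrome bc1 complex, has mt-Cytb as its mitochondrial member. It counted 490, 121 and 230 CPM in Control 1 to 3 and 201, 374 and 308 CPM in Sevoflurane 1 to 3, with a log2 fold change of 0.07 and the largest standard error of all 38 members, 0.45. Among the nuclear genes the fold change was 0.01 on the log2 scale for the core protein Uqcrc1 (SE 0.06) and 0.02 for Uqcrc2 (SE 0.08). Uqcrfs1, the Rieske iron-sulphur protein, was the lowest, at 12.95 to 18.5 CPM in sevoflurane and at most 16.1 CPM in air. The log2 fold change of the small subunit Uqcrq was 0.32 (SE 0.14) and that of Uqcrh 0.22 (SE 0.11), and neither was called.

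Complex IV, cytochrome c oxidase, contains the nuclear member with the largest fold change. Cox6c, a small membrane subunit (ENSMUSG00000014313, chr15:35925886-35938246, minus strand), counted 96.2, 82.8 and 94.1 CPM in Control 1 to 3 and 133, 143 and 94.0 CPM in Sevoflurane 1 to 3. Sevoflurane 1 and 2 were above every air-treated library and Sevoflurane 3 was among them. The log2 fold change was 0.44 (SE 0.15, BH-adjusted p = 0.143, edgeR). Over 19 alternative settings its adjusted p ran from 0.0308, without Sevoflurane 3, to 0.356. Cox8a, Ndufa4, Cox7a2 and Cox4i1 had log2 fold changes of 0.29 to 0.33, whereas Cox5a had 0.04 (SE 0.10). Cox5b, the lowest of the nuclear complex IV genes, counted 32.8 to 34.1 CPM in air but 49.1, 38.2 and 23.8 in Sevoflurane 1 to 3, so that the sevoflurane libraries lay on both sides of the others.

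The mitochondrial genes of complex IV had log2 fold changes near 0. mt-Co1, the catalytic subunit, counted 599, 224 and 375 CPM in Control 1 to 3 and 306, 507 and 442 in Sevoflurane 1 to 3, a log2 fold change of 0.07 (SE 0.33). mt-Co3 counted 952, 280 and 539 CPM against 419, 800 and 621, a log2 fold change of 0.06 (SE 0.40), and mt-Co2, which accepts electrons from cytochrome c, had one of -0.01 (SE 0.43). Of complex V, mt-Atp6 counted 1026, 281 and 489 CPM against 411, 784 and 641, a log2 fold change of 0.03 (SE 0.43), and mt-Atp8 counted 5.37 to 16.2 CPM over all libraries. In each of these genes Control 1 was the highest library and Control 2 the lowest.

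**Figure D2:**
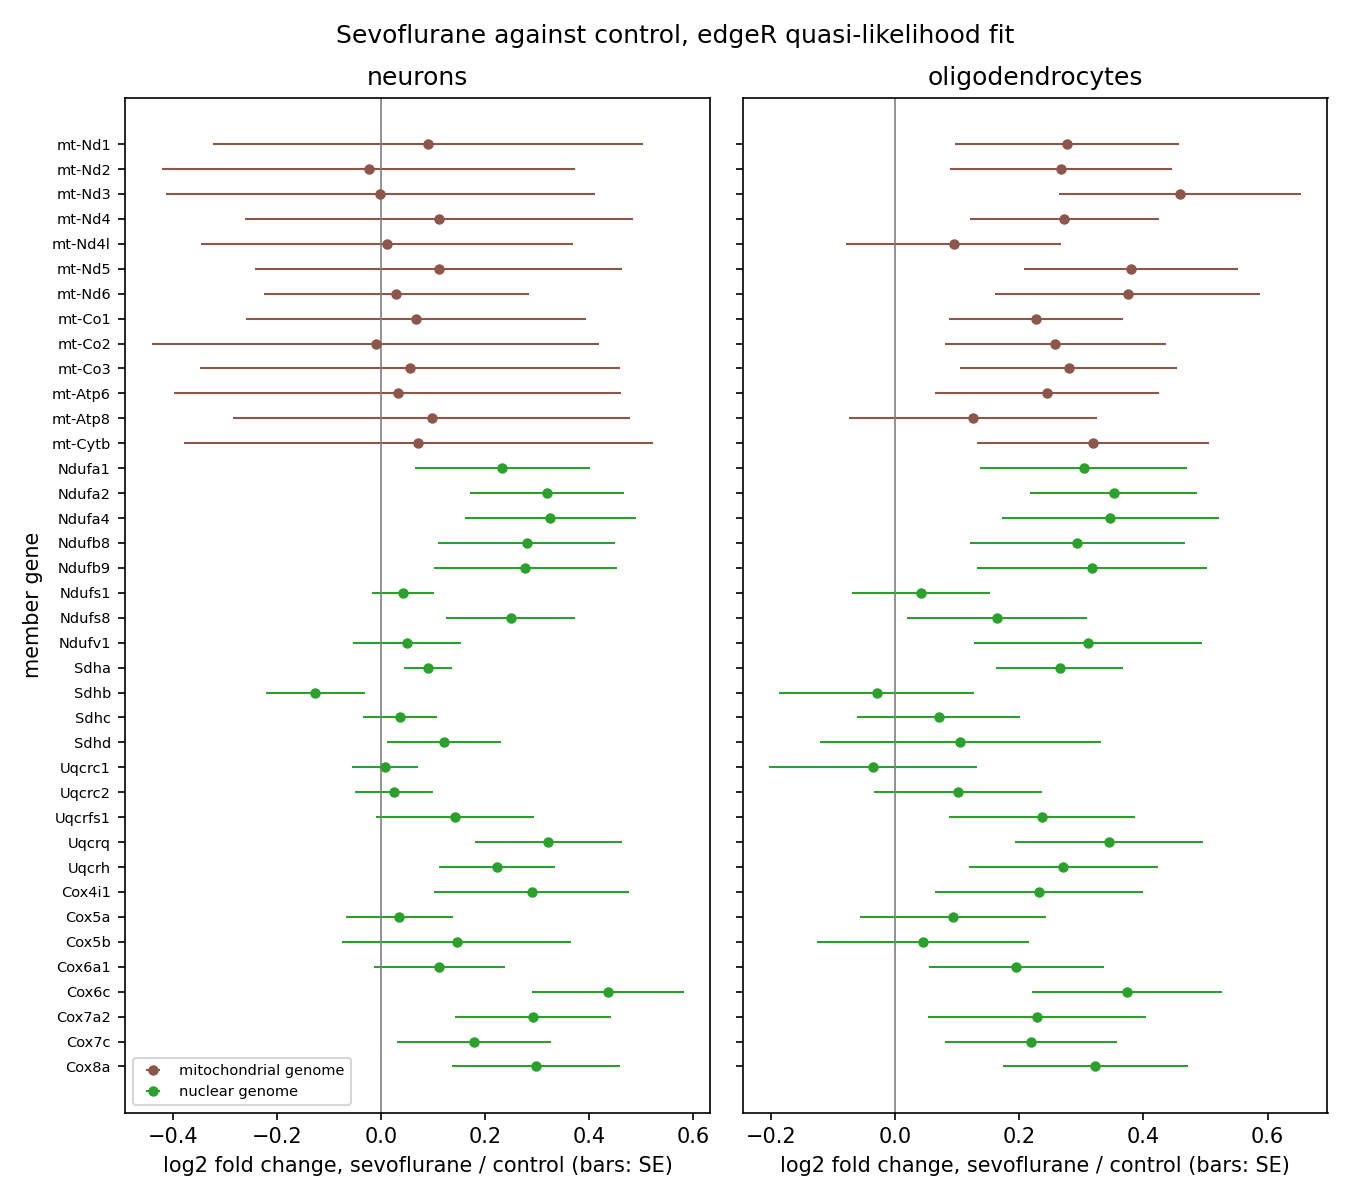
Log2 fold change of every member, sevoflurane over air, in neuron-like (left) and oligodendrocyte-like cells (right), with bars of 1 standard error. In neuron-like cells the mitochondrial members lie between -0.02 and 0.11 with standard errors of 0.25 to 0.45, and the nuclear members between -0.13 and 0.44 with standard errors of 0.05 to 0.22.

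As groups, the mitochondrial members had a median log2 fold change of 0.06 in neuron-like cells (10 of 13 above 0) and the nuclear members one of 0.18 (24 of 25 above 0), beside 0.02 over all genes tested. The direction of the mitochondrial median turned with single libraries: leaving out Control 1 gave 0.60, leaving out Control 2 gave -0.28 and leaving out Control 3 gave -0.02. Leaving out a sevoflurane library gave 0.25 for the first, -0.12 for the second and 0.01 for the third. The nuclear median stayed above 0 in each of these fits, from 0.08 without Sevoflurane 2 to 0.34 without Sevoflurane 3. Without Sevoflurane 3, Cox6c (log2 fold change 0.60, BH-adjusted p = 0.0308, edgeR) and Ndufa4 (0.50, BH-adjusted p = 0.0438) were called higher, and DESeq2 with all libraries called Cox6c (0.43, BH-adjusted p = 0.0339). The sign of the mitochondrial median thus changed with the library left out. Without Sevoflurane 2, 17 of 25 nuclear fold changes were above 0.

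**Figure D3:**
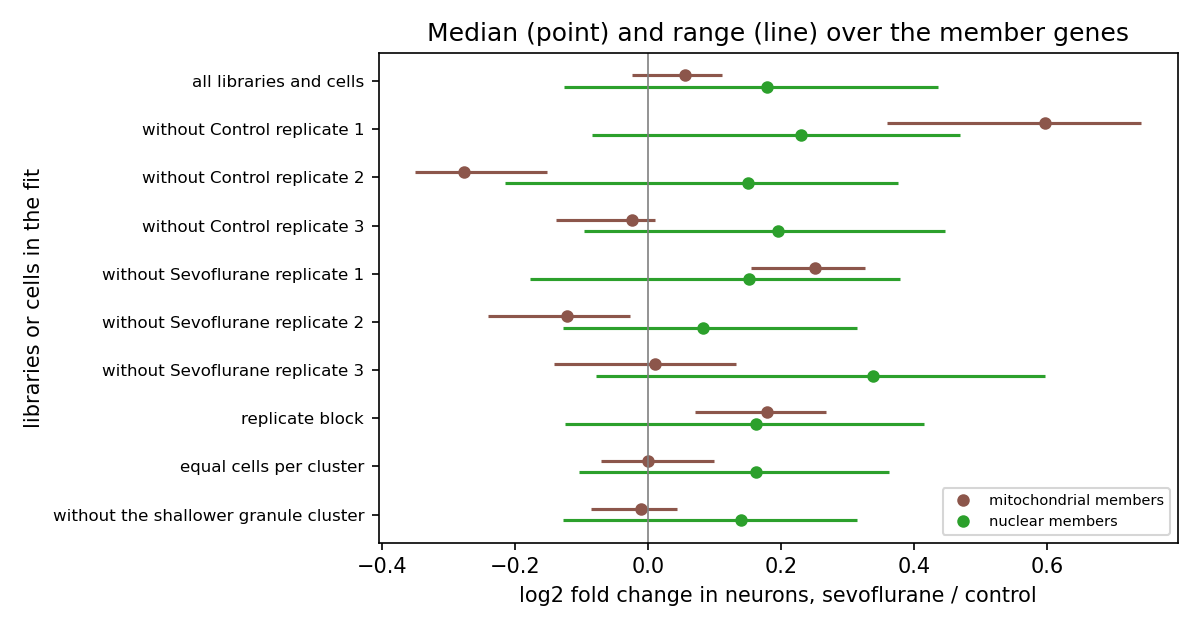
Median (point) and full range (line) of the members' log2 fold changes in neuron-like cells, sevoflurane over air, with all data, without each library in turn, with the replicate number as a block and with other choices of cells. The mitochondrial median moves from -0.28 without Control 2 to 0.60 without Control 1, while the nuclear median lies between 0.08 and 0.34.

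The make-up of the neuron-like class also differed between libraries. A granule-like cluster of lower depth (median 4642 UMIs per cell, against 7828 in the main granule-like cluster) made up 4.64, 2.48 and 3.35% of the neuron-like cells of Control 1 to 3 and 15.2, 19.4 and 6.71% of those of Sevoflurane 1 to 3. Its cells had a median mitochondrial share of 0.252 to 0.511% by library, against 0.113 to 0.291% in the main granule-like cluster. Within each library its median was the higher, though the ranges over libraries overlapped. Without this cluster, a choice made after seeing the data, the mitochondrial median was -0.01 and the nuclear median 0.14, with 23 of 25 nuclear fold changes above 0, and no member was called. With equal numbers of cells per cluster in every library the nuclear median was 0.16.

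No member was called in any other class. The share of all tested genes called was 1.97% in astrocyte-like, 0.634% in oligodendrocyte-like, 0.361% in oligodendrocyte precursor-like, 0.349% in microglia-like, 1.26% in endothelial-like and 0.532% in ependymal-like cells, and 2.26% when all kept cells of a library were summed. At an unadjusted p under 0.05 the edgeR fits gave 0 mitochondrial and 1 nuclear members in astrocyte-like, 2 and 5 in oligodendrocyte-like, 0 and 2 in precursor-like, 1 and 6 in microglia-like, 0 and 0 in endothelial-like, 0 and 4 in ependymal-like cells and 0 and 2 over all kept cells. Of all genes tested, that threshold was passed by 14.7% in astrocyte-like, 12.9% in oligodendrocyte-like, 10.5% in precursor-like, 9.16% in microglia-like, 13% in endothelial-like and 10.0% in ependymal-like cells, and by 19.8% over all kept cells. DESeq2 called 0 in each. mt-Nd6 fell below the filter on low counts in precursor-like and microglia-like cells, and 22 of the 25 nuclear members passed it in ependymal-like cells.

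The nuclear members' median log2 fold change was above that of all genes in every class: 0.18 in astrocyte-like, 0.23 in oligodendrocyte-like, 0.34 in precursor-like, 0.22 in microglia-like, 0.08 in endothelial-like and 0.31 in ependymal-like cells, where all genes had medians of 0.00 to 0.01. Single libraries moved these medians. Without Sevoflurane 2 the nuclear median was 0.04 (14 of 25 above 0) in astrocyte-like, 0.10 in oligodendrocyte-like, 0.15 in precursor-like and 0.12 in microglia-like cells. Without Sevoflurane 3 it was 0.32, 0.36, 0.46 and 0.40 in the same classes. In endothelial-like cells it ran from 0.04 without Sevoflurane 1 to 0.18 without Control 2, and in ependymal-like cells from 0.24 without Sevoflurane 2 to 0.47 without Control 1. The libraries whose removal gave the ends were thus not the same in every class. By share of UMIs, Sevoflurane 2 had the highest nuclear sum in 7 of 7 classes. Sevoflurane 1 was above all air-treated libraries in 6 of 7, and Sevoflurane 3 was within the air-treated range in 7 of 7. The classes come from the same libraries, so they are not independent repeats. The neuronal transcript Snap25, whose product is a synaptic vesicle fusion protein, was also at its highest per cell in Sevoflurane 2 in oligodendrocyte-like (2.32 UMIs) and microglia-like cells (2.44 UMIs), where the air-treated libraries held 1.48 to 2.19 and 1.54 to 2.18. Per cell, astrocyte-like and ependymal-like cells had the same highest library, but precursor-like (2.95 UMIs) and endothelial-like cells (2.17 UMIs) had theirs in Control 1. Scaled to depth, Snap25 was highest in Sevoflurane 2 in precursor-like cells too, at 771 CPM against 732 in Control 1. In endothelial-like cells it then stood at 548 CPM in Sevoflurane 2 against 513 in Control 1. The other glial classes and ependymal-like cells also had Sevoflurane 2 highest when scaled. In neuron-like cells Snap25 was lowest per cell in Sevoflurane 2 (9.19 UMIs) and, scaled to depth, in Sevoflurane 3 (940.5 CPM). Cells named choroid plexus epithelial numbered 58, 17 and 99 in Control 1 to 3 and 0, 0 and 0 in Sevoflurane 1 to 3. Ttr, a marker of that class, counted 497, 239 and 1506 CPM in microglia-like cells of Control 1 to 3. In Sevoflurane 1 to 3 it counted 9.8, 1.9 and 1.7 CPM there. Tissue content and RNA from outside the cells thus differed between the groups. The part of RNA from outside these cells in the nuclear sum was not tested.

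In oligodendrocyte-like cells, which make myelin, the mitochondrial members had a median log2 fold change of 0.27 with 13 of 13 above 0, and none was called. Their summed level was 5924, 3819 and 4443 CPM in Control 1 to 3 and 5018, 6724 and 5341 CPM in Sevoflurane 1 to 3, so the groups overlapped through Control 1. The median was 0.48 without Control 1, 0.11 without Control 2, 0.13 without Sevoflurane 2 and 0.10, with 11 of 13 above 0, when the trend over gene span was removed. mt-Nd3, a small membrane subunit of complex I, counted 96.4, 55.7 and 55.1 CPM in Control 1 to 3 and 84.6, 109 and 94.1 CPM in Sevoflurane 1 to 3. Control 1 reached into the sevoflurane range, and the log2 fold change was 0.46 (SE 0.19, BH-adjusted p = 0.352, edgeR). The log2 fold change was 0.38 (SE 0.17) for mt-Nd5 and 0.32 (SE 0.19) for mt-Cytb. Of the nuclear genes, Cox6c counted 272, 230 and 254 CPM against 329, 397 and 255 (log2 fold change 0.37, SE 0.15), Ndufa4 had 0.35 (SE 0.18) and Ndufa2, an accessory subunit of complex I, 0.35 (SE 0.13). The groups of 3 members, mt-Nd6, Ndufa2 and Sdha, did not overlap, in a class where this held for 18.0% of all genes tested.

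Sdha was the member whose groups stood apart most often, in 5 of 7 classes, each time with sevoflurane higher and never called. In oligodendrocyte-like cells it counted 119, 119 and 124 CPM in Control 1 to 3 and 148, 141 and 145 in Sevoflurane 1 to 3, a log2 fold change of 0.27 (SE 0.10, BH-adjusted p = 0.311, edgeR). In astrocyte-like cells it counted 125, 139 and 140 CPM against 172, 164 and 149, a log2 fold change of 0.26 (SE 0.12). The others were endothelial-like cells, with a log2 fold change of 0.29 (SE 0.18), and ependymal-like cells, with 0.40 (SE 0.24). The groups did not overlap for 19.6% of all genes tested in astrocyte-like, 18.7% in endothelial-like and 14.5% in ependymal-like cells.

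Microglia-like cells, the resident immune cells of brain tissue, had their largest nuclear fold changes in Ndufs1, at 85.4, 87.4 and 97.5 CPM in Control 1 to 3 and 101, 135 and 154 in Sevoflurane 1 to 3 (log2 fold change 0.53, SE 0.20, BH-adjusted p = 0.390, edgeR), Ndufb9 (0.51, SE 0.22) and Uqcrq (0.49, SE 0.19). The groups did not overlap for Ndufs1, Uqcrq and Cox6c, 3 of the 37 members tested, beside 13.8% of all genes tested in this class. The make-up of the class also differed: of 6 markers of border macrophages 3 passed the filter, and F13a1 and Mrc1 among them fell. Their summed level was 520 to 692 CPM in air and 6.51 to 236 CPM in sevoflurane, with none of the 6 at 0, and the part of this in the members' values was not tested. Their largest mitochondrial ones were those of mt-Nd3 (0.35), mt-Atp6 (0.35, SE 0.16) and mt-Cytb (0.34). In precursor-like cells Ndufs8 (0.78), Ndufa1 (0.54) and Cox7a2 (0.53, SE 0.23) led the nuclear members, and mt-Cytb (0.30), mt-Co3 (0.28) and mt-Co1 (0.24) the mitochondrial ones. These are small classes, and no value among them was called.

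Ependymal-like cells, which line the ventricles and carry motile cilia, had Ndufb9 (0.71, SE 0.28), Cox7c (0.58, SE 0.23) and Cox6c (0.55, SE 0.21) as their largest nuclear log2 fold changes. Cox6c counted 210, 190 and 151 CPM there in Control 1 to 3 and 281, 321 and 207 in Sevoflurane 1 to 3, so Sevoflurane 3 was again the library inside the air-treated range. Their largest mitochondrial values were mt-Nd5 (0.33), mt-Nd3 (0.19) and mt-Nd4l (-0.18). In endothelial-like cells Uqcrc2 (0.42, SE 0.23), Ndufa4 (0.33) and Sdha led the nuclear members and mt-Nd6 (0.41), mt-Atp8 (0.21) and mt-Nd3 (0.18) the mitochondrial ones. In astrocyte-like cells no mitochondrial member exceeded mt-Nd1 at 0.12 (SE 0.18), mt-Atp8 had -0.10 and mt-Nd4l 0.06, and the largest nuclear values were Ndufs8 (0.33, SE 0.17), Ndufa1 (0.32) and Ndufb9 (0.31). With all kept cells of a library summed, Cox6c (0.40, SE 0.14), Uqcrq (0.30) and Ndufa4 (0.29) had the largest nuclear values, and mt-Nd5 (0.14), mt-Nd1 (0.11) and mt-Nd4 (0.11) the largest mitochondrial ones.

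The sevoflurane effect was compared directly between classes with an interaction term. No member differed between oligodendrocyte-like and neuron-like cells (0.590% of all genes were called). At an unadjusted p under 0.05 there were 1 mitochondrial and 0 nuclear members, beside 8.46% of all genes, and DESeq2 called 0 and 0. No member differed between astrocyte-like and neuron-like cells (2.08% of all genes were called). Here 0 and 1 members had an unadjusted p under 0.05, beside 11.5% of all genes, and DESeq2 called 0 and 0. The mitochondrial median of the difference was 0.12 for oligodendrocyte-like and -0.11 for astrocyte-like cells. Without Control 2, mt-Nd3 was called in the former, with a difference of 0.74 on the log2 scale (SE 0.15, BH-adjusted p = 0.0270, edgeR), against 0.41 (SE 0.19) with all libraries.

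The balance of the genomes was next described across the cell classes. Per nuclear-member UMI there were 12.02 ± 3.87 mitochondrial UMIs in ependymal-like cells, 5.03 ± 1.16 in endothelial-like, 2.71 ± 1.10 in neuron-like, 2.19 ± 0.331 in astrocyte-like, 1.87 ± 0.455 in precursor-like, 1.72 ± 0.269 in oligodendrocyte-like and 1.66 ± 0.252 in microglia-like cells (SD, n = 6 libraries). Ependymal-like and endothelial-like cells exceeded neuron-like cells in 6 of 6 libraries. Astrocyte-like cells did so in 2 of 6, precursor-like and microglia-like cells in 1 of 6 each, and oligodendrocyte-like cells in 0 of 6. Over all libraries the ranges of neighbours from neuron-like down to microglia-like cells overlapped. Between the groups the means were 2.80 in air and 2.61 in sevoflurane in neuron-like cells, with libraries from 1.49 to 4.52. These are ratios of counted 3′ tags, not divided by transcript length.

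**Figure D4:**
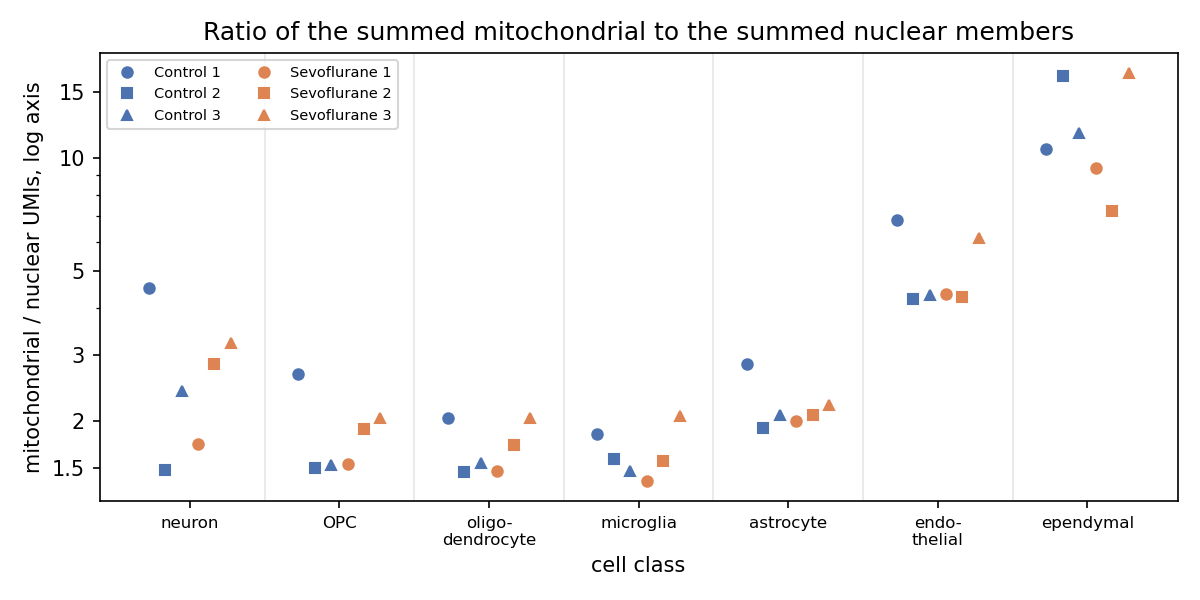
Mitochondrial-member UMIs per nuclear-member UMI (log axis) by cell class, 1 point per library, blue for air and orange for sevoflurane. Ependymal-like cells lie between 7.22 and 16.8 and endothelial-like cells between 4.22 and 6.84, while microglia-like and oligodendrocyte-like cells lie between 1.39 and 2.06.

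The sums behind this ratio ranked the classes differently. The mitochondrial share was highest in ependymal-like (2.54% ± 0.486) and endothelial-like cells (1.84% ± 0.336) and lowest in neuron-like cells (0.320% ± 0.132, SD, n = 6). The nuclear share was highest in endothelial-like (0.369% ± 0.0339) and microglia-like cells (0.346% ± 0.0687) and again lowest in neuron-like cells (0.118% ± 0.0204). Among neurons, CA3-like cells had the lower mitochondrial and nuclear shares in 6 of 6 libraries compared with all neuron-like cells. Granule-like and inhibitory neuron-like cells each had the higher ones in 6 of 6. The 9356 CA1-like cells are not compared here. In single cells the median mitochondrial share was 0.0954 to 0.280% by library in neuron-like, 1.15 to 1.95% in endothelial-like and 1.44 to 2.48% in ependymal-like cells.

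Tested gene by gene against neuron-like cells of the same libraries, 13 of 13 mitochondrial and 25 of 25 nuclear members were higher in oligodendrocyte-like cells, where 33.9% of all genes were called higher. The same counts, 13 and 25, held in astrocyte-like cells (31.5% of all genes), and 8 and 21 members were higher in microglia-like cells (27.4%). The medians over all genes were -0.10, -0.08 and -0.21 on the log2 scale, and the 3 comparisons share the neuron-like sums.

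The nuclear and mitochondrial members had median log2 fold changes of 1.12 and 0.54 in oligodendrocyte-like, 0.91 and 0.63 in astrocyte-like and 0.93 and 0.29 in microglia-like cells. In oligodendrocyte-like cells the largest were Cox4i1, the regulatory subunit of cytochrome c oxidase (1.58, SE 0.05, BH-adjusted p = 9.31e-15, edgeR), Ndufa4 (1.48, SE 0.05) and Ndufa2 (1.46, SE 0.06). Among mitochondrial genes of at least 20 CPM they were mt-Atp8 (0.76, SE 0.13), mt-Nd4 (0.60, SE 0.11) and mt-Co1 (0.59, SE 0.10). mt-Nd6, under that limit, had 0.79 in oligodendrocyte-like, 0.83 in astrocyte-like and 0.51 in microglia-like cells, and was not called in the last. In astrocyte-like cells Uqcrfs1, Ndufa4 and Cox4i1 each stood at 1.17, and mt-Atp8, mt-Atp6 and mt-Nd4l at 0.67 to 0.68. In microglia-like cells Ndufa4 (1.34, SE 0.08), Ndufb8 (1.30, SE 0.11) and Ndufa2 (1.26, SE 0.12) were largest. Among the mitochondrial genes of at least 20 CPM they were mt-Atp8 (0.59), mt-Nd5 (0.46) and mt-Nd4 (0.41). The smallest values were those of Ndufs1 in oligodendrocyte-like cells (0.18, SE 0.06) and Uqcrc1 in astrocyte-like cells (0.20, SE 0.07). In microglia-like cells Ndufs1 was not called (-0.10, SE 0.10, BH-adjusted p = 0.382, edgeR).

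Per cell, without scaling to depth, the order of neuron-like and glial cells turned. A neuron-like cell held 10.1 to 13.7 UMIs of the nuclear members by library, and the glial cells fewer: 7.03 to 10.1 in astrocyte-like, 6.04 to 9.20 in oligodendrocyte-like, 6.69 to 10.0 in precursor-like and 5.71 to 9.22 in microglia-like cells. The mean depth was 8984 to 11294 UMIs in a neuron-like and 1868 to 2285 in a microglia-like cell. Snap25, which glial cells should lack, was found at 1.48 to 2.95 UMIs per cell in the 4 glial classes and at 9.19 to 11.1 in neuron-like cells. Scaled to depth it stood at 761 to 1266 CPM in microglia-like and 940.5 to 1110 CPM in neuron-like cells. The summed level of the 10 neuron markers was 4639 to 6576 CPM in microglia-like cells, with none of the 10 at 0. The part of such RNA in the class differences was not tested. Ependymal-like cells held 70.9 to 134.9 mitochondrial UMIs per cell beside 1.48 to 2.43 of Snap25, and oligodendrocyte-like cells 8.83 to 15.9.

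The rest of the pathway was followed with lists of genes. In neuron-like cells none of 30 other complex I subunits, 11 other subunits of complexes III and IV, or 18 nuclear subunits of ATP synthase was called, and their median log2 fold changes of 0.21, 0.23 and 0.22 were close to the 0.18 of the nuclear members. The lists of 46 assembly factors (median 0.05), 37 genes that maintain and express the mitochondrial genome (0.00), 16 regulators of mitochondrial biogenesis (0.03) and 16 glycolytic genes (0.08) had none called either. Beside 3.89% of all genes tested, 1 of 16 citric acid cycle genes was called. This was Suclg2, a subunit of GTP-forming succinyl-CoA ligase, which rose from 5.88, 6.24 and 6.38 CPM in Control 1 to 3 to 11.1, 9.50 and 9.70 CPM in Sevoflurane 1 to 3 (log2 fold change 0.71, SE 0.10, BH-adjusted p = 0.0167, edgeR). Its groups did not overlap, as was so for 26.8% of all genes tested in these cells. The call was lost without Control 1, 2 or 3 and with the replicate number as a block (adjusted p = 0.0650) and kept in the other 15 of 19 settings. Without each library the log2 fold change ran from 0.64 to 0.75 and the adjusted p from 0.0361 to 0.0725.

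RNA of the nucleus was tested as a further list, since RNAs of the mitochondria and of the nucleus lie in different parts of a cell. The 6 such RNAs had a median log2 fold change of -0.04 in neuron-like cells. Beside 3.89% of all genes tested, 1 of the 6 was called. This was Kcnq1ot1, a long non-coding RNA retained in the nucleus. It fell from 668, 696 and 660 CPM in Control 1 to 3 to 533, 532 and 553 CPM in Sevoflurane 1 to 3 in these cells (log2 fold change -0.32, SE 0.05, BH-adjusted p = 0.0186, edgeR). The call was lost without Control 1, 2 or 3, without Sevoflurane 2 and with the replicate number as a block (adjusted p = 0.0768) and kept in the other 14 of 19 settings. Without each library the log2 fold change ran from -0.35 to -0.30 and the adjusted p from 0.0385 to 0.0816. The groups did not overlap, beside 26.8% of all genes tested.

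The members differ from most genes in genomic span. The median gene tested in neuron-like cells spans 23.1 kb, the median nuclear member 5.99 kb and the median mitochondrial member 0.784 kb. Over the 25 nuclear members the log2 fold change in neuron-like cells and the span had a Spearman rho of -0.53 and a Pearson r of -0.53 (with log2 span), given as a description across genes that share the same libraries. The 12 members shorter than the median had a median log2 fold change of 0.24 and the 12 longer ones 0.07. With each library's smooth trend over span removed, 20 of 25 nuclear fold changes were above 0 with a median of 0.06, and 0 of 13 mitochondrial ones were above 0 with a median of -0.09; the sign of the mitochondrial median turned. In endothelial-like cells the same correlation had the other sign, with rho at 0.55.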

How the data were processed

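Single-cell UMI counts of 6 libraries were used. The deposited matrices hold whole-number counts of UMIs per gene and barcode and name Cell Ranger 6.1.1 as their source, per the file headers. The submitters' processing notes also list CASAVA 1.8 and Seurat. The genome build and annotation are not given in the sources used here. Of the gene IDs, 31184 of 31253 matched GENCODE M21 (GRCm38), from which positions and sequences were taken. Barcodes under 500 UMIs, under 300 genes or over 20% mitochondrial UMIs were left out, and the cells with the highest Scrublet scores (0.8% for each 1000 barcodes, 5.64 to 7.81% of a library) were removed as doublets. Cells were clustered with scanpy 1.11.5 (2000 variable genes, 30 components, 15 neighbours, resolution 1), with the members left out of the doublet score, the variable genes and the scaling. Clusters were named from marker genes, so shares and levels rest on these rebuilt names.

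Counts were summed per library and class and tested with edgeR 4.0.16 (R 4.3.3; quasi-likelihood, TMM, filterByExpr, Benjamini-Hochberg adjustment over all genes of a fit, threshold 0.05); the script was tested on simulated data. A standard error is the log2 fold change divided by the root of the F statistic. DESeq2 1.42.0 was an alternative, along with other scalings, filters, cell limits and left-out libraries. Class comparisons and interactions had the library as a block. Named genes are all members called, the highest and lowest of each complex and genome in neuron-like cells, the 3 per genome with the largest fold change in each comparison (at least 20 CPM), and called genes of other lists; others were chosen after their values were seen. The members and lists were chosen with earlier results of these data known. The library is the replicate; the labels do not say which mouse gave which library. UMI sums per class limit precision to counting error and the spread of 3 libraries per group. Fewer transcripts per cell and a larger part of other transcripts in the total cannot be told apart in these shares.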

Additional observations from a re-analysis of the deposited data

How the results depend on the processing

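Same-numbered libraries did not deviate together in neuron-like cells (correlations of -0.0467, 0.0255 and -0.00625). With 3 libraries per group these values cannot decide whether the numbers pair libraries. A fit with the replicate block called 0 members, and 118 genes in place of 732. In neuron-like cells the count of genes called was 1498 with DESeq2 and 436 with the span trend removed, and 32 to 469 without each library in turn. Of the nuclear members there, DESeq2 called 1, and fits without each library 0 to 2, the 2 being called without Sevoflurane 3. The ratio of the summed mitochondrial share, 1.13, ran from 0.892 to 1.67 without each library, the highest without Control 1. In oligodendrocyte-like cells 1 mitochondrial member was called with no filter on low counts. The interaction with oligodendrocyte-like cells gave 0 to 1 without each library, the 1 without Control 2. Against neuron-like cells, the mitochondrial members called were 6 of 13 in oligodendrocyte-like cells with no library block. In microglia-like cells they were 5 with DESeq2, 0 with no library block and 4 to 10 without each library (4 without Control 2 or Sevoflurane 1), in place of 8. In the main fits 33.9% of all genes were called higher in oligodendrocyte-like and 27.4% in microglia-like cells. The shares in the alternative class fits are not given here, so these counts cannot be set against them. The cause of these differences was not tested. Depth limits the small classes most: mt-Nd6 could not be tested in precursor-like and microglia-like cells.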
